A study of Homo sapiens with 27 samples.

Results

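The 10 genes described here encode transcription factors of the surface ectoderm, the outer embryonic layer that forms epidermis, lens and other non-neural epithelia. They were chosen by name: the rows of the count and TPM tables whose Ensembl identifiers map to TP63, GRHL1, GRHL2, GRHL3, TFAP2A, TFAP2C, OVOL1, OVOL2, ELF3 and KLF5, that is 10 of 44852 genes. The rule uses no measured value, but the list of names was drawn up with earlier results of these data known. All 10 were tested in every comparison. As background, the AP-2 factors TFAP2A and TFAP2C act early in non-neural ectoderm and prepare chromatin for TP63, which maintains the basal progenitors of stratified epithelia. The grainyhead-like factors GRHL1 to GRHL3 and the ETS factor ELF3 drive junction and barrier genes, the zinc finger repressors OVOL1 and OVOL2 hold back mesenchymal regulators such as ZEB1, and the Krüppel-like factor KLF5 acts in proliferating epithelial cells. Neural and retinal differentiation normally leaves this layer behind, and several of the factors are also active in pluripotent stem cells or in extraembryonic epithelium.

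Bulk RNA-seq was performed on H1 human embryonic stem cells that were differentiated toward photoreceptor progenitors on 3 recombinant laminin matrices and collected at days 2, 22 and 32, with 3 replicates in each of the 9 groups and 27 libraries in all. The matrices are called LN523, LN323 and LN521 here. Per the labels, LN323 was used alone and LN523 and LN521 were each combined with LN323, whereas in the study's methods LN523 and LN323 were each combined with LN521 and LN521 was used alone, so the partner of each laminin is not settled. The day 2 cells were undifferentiated and had not yet received the neural induction medium with SB431542 and CKI-7, and the later cells had moved on to a medium with BDNF, CNTF, retinoic acid and DAPT. All groups therefore share the H1 line and the induction protocol, and none was left undifferentiated to day 22 or 32. Total counts ranged from 25620624 to 47340990 per library with a median of 39862487. Replicate number equals sequencing lane, and the labels do not say that the replicates were separate cultures, so p-values measure the spread between these libraries only. In bulk RNA, fewer cells of a type and less RNA per cell cannot be told apart. The pluripotency genes fell from day 2 to day 22 on every matrix, with 10 of 10 called on each, and 7 of 8 eye field and retinal progenitor genes rose on each, with PAX6 at a mean of 615 counts scaled to library size (CPM) on LN523 at day 22. Among the libraries of days 22 and 32, the replicate 2 libraries on LN523 and LN323 stood apart in the levels of the surface ectoderm factors, as described further on.

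Coordinates of the genes are given for GRCh38 as annotated by GENCODE 44. TP63 (ENSG00000073282) occupies chr3:189631389-189897276, GRHL1 (ENSG00000134317) chr2:9951693-10002277, GRHL3 (ENSG00000158055) chr1:24199558-24364482, ELF3 (ENSG00000163435) chr1:202007945-202017183 and KLF5 (ENSG00000102554) chr13:73054976-73077541, all on the plus strand, and the annotated position of GRHL2 (ENSG00000083307) is not reported here. TFAP2A (ENSG00000137203) occupies chr6:10393186-10419659 on the minus strand, TFAP2C (ENSG00000087510) chr20:56629306-56639283 on the plus strand, OVOL1 (ENSG00000172818) chr11:65787063-65797214 on the plus strand and OVOL2 (ENSG00000125850) chr20:17956979-18059188 on the minus strand. Values are summed over all transcripts of a gene, so the TA and ΔN isoforms of TP63, which start at different promoters, were not separated. The strand setting of the counting was not given in the sources used here. Without it, reads of antisense partners could be counted with OVOL1, where 27.3% of exonic bases lie opposite another gene, and with TFAP2A, where TFAP2A-AS1 and TFAP2A-AS2 lie opposite 16.8%. For ELF3 the share was 9.24%, and for TP63, GRHL3, TFAP2C and KLF5 it was 0.

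The start regions of the genes that rose on every matrix are shown to place those genes side by side. RefSeq windows were found for 6 of the 10 genes, TP63, GRHL1, GRHL3, TFAP2A, ELF3 and KLF5, and each sequence below is the 250 bases before a transcript start in GRCh38, read along the strand of the gene. Capitals mark the letters CACCC, the box bound by Krüppel-like factors, on either strand (GGGTG when it lies on the other strand).
TP63, TA start, chr3:189631139-189631388: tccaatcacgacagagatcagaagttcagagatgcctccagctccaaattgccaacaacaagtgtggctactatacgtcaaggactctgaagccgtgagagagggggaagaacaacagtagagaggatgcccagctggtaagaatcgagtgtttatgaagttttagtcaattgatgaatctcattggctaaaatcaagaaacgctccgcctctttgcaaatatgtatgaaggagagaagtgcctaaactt
TP63, ΔN start, chr3:189789409-189789658: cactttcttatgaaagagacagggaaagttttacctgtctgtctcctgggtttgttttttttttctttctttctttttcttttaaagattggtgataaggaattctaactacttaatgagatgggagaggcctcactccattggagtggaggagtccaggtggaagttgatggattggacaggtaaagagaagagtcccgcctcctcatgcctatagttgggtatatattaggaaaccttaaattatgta
GRHL3, chr1:24319107-24319356: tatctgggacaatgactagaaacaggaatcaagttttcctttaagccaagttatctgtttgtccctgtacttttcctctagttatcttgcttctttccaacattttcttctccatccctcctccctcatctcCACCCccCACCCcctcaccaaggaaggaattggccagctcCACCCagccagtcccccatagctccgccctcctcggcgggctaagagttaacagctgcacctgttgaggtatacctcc
TFAP2A, chr6:10419660-10419909, minus strand: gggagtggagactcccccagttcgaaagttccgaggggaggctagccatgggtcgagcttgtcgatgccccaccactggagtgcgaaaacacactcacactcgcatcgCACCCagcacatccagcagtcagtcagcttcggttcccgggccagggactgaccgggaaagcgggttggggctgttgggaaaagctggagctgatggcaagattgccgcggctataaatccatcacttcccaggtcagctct
KLF5, chr13:73058755-73059004: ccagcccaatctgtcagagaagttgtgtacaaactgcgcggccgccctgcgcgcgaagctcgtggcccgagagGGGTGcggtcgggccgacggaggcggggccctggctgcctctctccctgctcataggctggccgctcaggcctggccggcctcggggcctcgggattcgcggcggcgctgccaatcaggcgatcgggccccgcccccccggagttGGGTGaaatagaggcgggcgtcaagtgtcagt
The ΔN window was read from the reference genome before an annotated ΔN transcript and lies inside the gene, 158270 bases after the TA start. The TA, GRHL3 and KLF5 windows shown lie before the start of the gene's standard reference transcript (MANE). The TFAP2A window shown lies before another start, 4585 bases from that of its reference transcript, and the second TFAP2A window before one 2683 bases from it. CACCC was found 3 times in the GRHL3 window, 2 times in the KLF5 window and 1 time in the TFAP2A window, and not in either TP63 window, while 54.7% of 34943 RefSeq windows of the same length hold it. The windows of TP63 had a GC content of 44% and 39.2% and that of KLF5 70.8%, against a median of 58% over all windows. The letters AACCGGTT (grainyhead), GCCNNNGGC (AP-2) and CCGTTA (OVOL), searched on both strands, were in none of the 5 windows and in 0.114%, 19.7% and 2.45% of all windows. No CACCC match could therefore overlap a match of these. The letters GGAAGT (ETS) were found 1 time each in the TFAP2A and ΔN windows shown, where they are not capitalised, and in 19.5% of all windows. GRHL3, TFAP2A and KLF5 each have a second RefSeq window that is not shown. Each of these holds 1 CACCC, that of GRHL3 also holds 1 GCCNNNGGC, and their GC contents were 52%, 71.2% and 40.8%. A match is a description of the letters and not a measured site, and no binding was measured.

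At day 2 the factors fell into a silent and an expressed group. On the length-corrected scale of TPM, counts divided by gene length and scaled to a fixed library total, GRHL2 was the highest with a median of 39.8 over the 9 libraries (34.0 to 47.9), followed by TFAP2C at 25.3 (6.83 to 30.5) and OVOL2 at 17.5 (14.3 to 21.2). ELF3 had a median of 9.54 TPM, OVOL1 5.94, KLF5 2.80, GRHL1 2.62 and GRHL3 2.09, and neighbours in this part of the order overlapped in their ranges. GRHL2 lay above TFAP2C in range, while TFAP2C and OVOL2 overlapped. TFAP2A lay between 0.00927 and 0.645 TPM and TP63 between 0 and 0.127 TPM, with 0 to 10 counts per library. TP63 and TFAP2A were thus close to undetected in the undifferentiated cells, whereas GRHL2, TFAP2C and OVOL2 were well expressed there. By day 22 the order had turned. KLF5 came first with a median of 28.2 TPM (18.2 to 105), then GRHL2 at 22.5 (12.2 to 82.0), ELF3 at 21.1 (14.6 to 43.1), GRHL3 at 13.7 (7.02 to 49.7) and TP63 at 13.2 (7.44 to 30.3). OVOL2, among the highest at day 2, was last at day 22 with a median of 1.86 TPM (1.34 to 12.7). The ranges of the first 5 genes overlapped at day 22, so that their order among themselves was not larger than the spread between libraries. At day 32 the same 5 genes held the first 5 places, with medians from 35.0 TPM for KLF5 to 13.8 TPM for TP63, and the ranges had widened, from 1.86 to 73.2 TPM for GRHL2 and from 0.641 to 38.8 TPM for GRHL3.

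**Figure D1:**
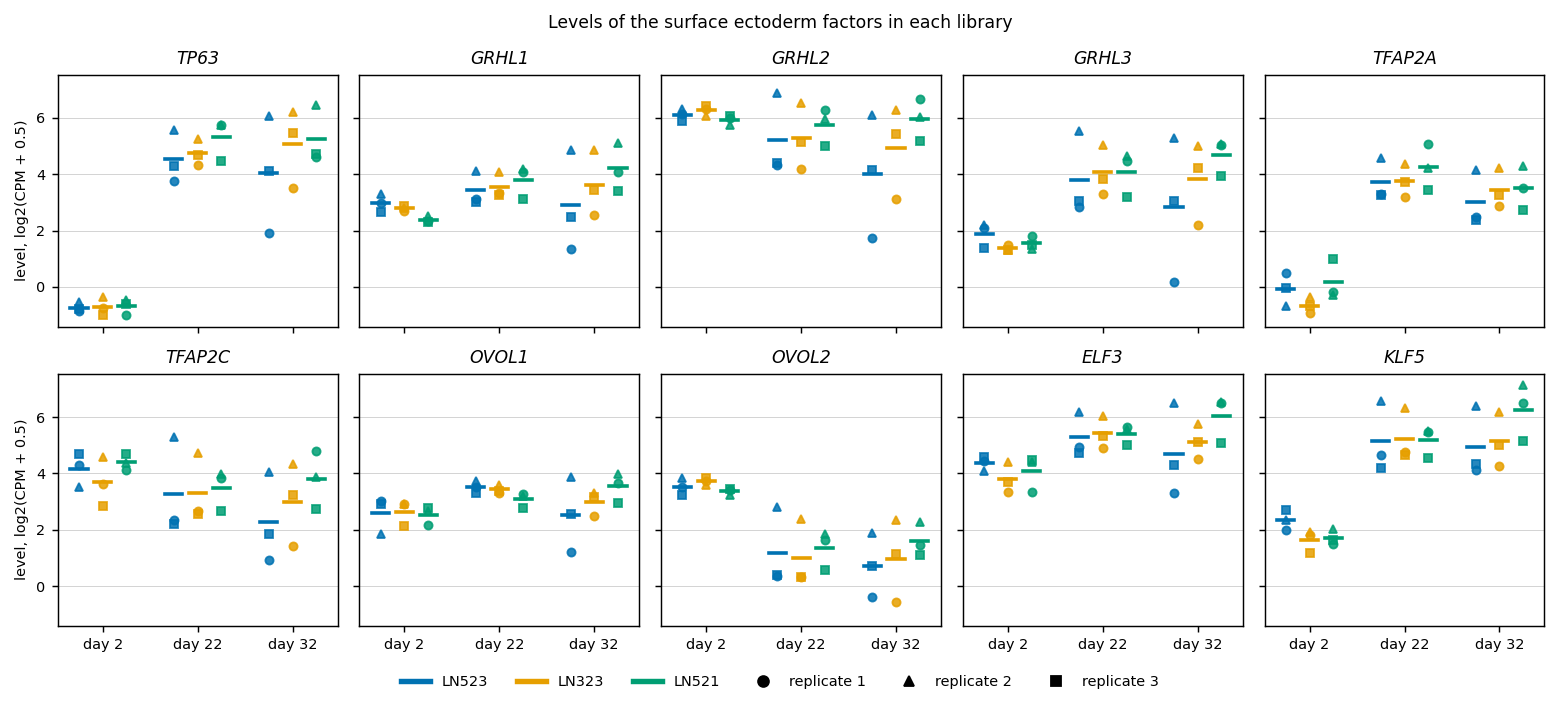
Level of each of the 10 factors in each of the 27 libraries, as log2(CPM + 0.5) on the vertical axis against day, with 1 panel per gene. Colours give the matrix, symbols the replicate, and short bars the mean of the 3 libraries of a group. TP63 and TFAP2A sit near the bottom at day 2 and rise by day 22, OVOL2 falls, and replicate 2 (triangles) tops its group on LN523 and LN323 at both later days.

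The comparison of day 22 with day 2 on each matrix asked how the factors changed during the differentiation. TP63, TFAP2A, KLF5 and GRHL3 rose and OVOL2 fell on all 3 matrices, ELF3 rose on LN323 and LN521, GRHL1 rose on LN521, and GRHL2, TFAP2C and OVOL1 did not pass the test on any. With p-values from edgeR adjusted by Benjamini-Hochberg, 5 of the 10 factors were called on LN523, where 21.7% of all 44852 genes were called, 6 on LN323, where 22.7% of all genes were called, and 7 on LN521, where 18.9% of all genes were called. The median log2 change over the 10 factors was 0.83 on LN523, 1.23 on LN323 and 1.44 on LN521, beside medians over all genes of 0.020, 0.019 and −0.018. Of the factors 4, 5 and 6 were called higher and 1 on each matrix lower, where 11.5%, 11.8% and 10.8% of all genes were called higher and 10.2%, 10.9% and 8.09% lower. The 2 days did not overlap for 7, 8 and 9 of the factors. Over all genes, day 22 lay wholly above day 2 for 15.3%, 16% and 15.8% and wholly below it for 14.6%, 16.3% and 15.4%. Among genes with a mean of at least 1 CPM the called share was higher, at 50.2%, 52.4% and 43.3%, so that the counts of factors called on LN523 and LN323 were near that background.

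TP63, the p53-family regulator of basal epithelial progenitors, changed most. Its CPM at day 2 were 0.0521, 0.185 and 0.0772 in replicates 1 to 3 on LN523, 0.0963, 0.273 and 0 on LN323, and 0, 0.232 and 0.158 on LN521. At day 22 they were 13.2, 47.4 and 19.3 on LN523, 19.4, 38.1 and 25.4 on LN323, and 53.5, 53.5 and 22.0 on LN521. Every day 22 library lay far above every day 2 library. The log2 fold change was 7.95 ± 0.63 (SE, n = 3 against 3) on LN523, 7.97 ± 0.62 on LN323 and 8.72 ± 0.63 on LN521, with adjusted p from edgeR of 7.45e-15, 2.47e-15 and 2.47e-16. The day 2 groups held only 10, 14 and 16 TP63 counts in sum, so the size of the fold is less certain than its direction.

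TFAP2A, an AP-2 factor of non-neural ectoderm and neural crest, followed the same course from a low start. Its day 2 CPM were 0.912, 0.123 and 0.463 on LN523, 0.0241, 0.273 and 0.122 on LN323, and 0.390, 0.325 and 1.47 on LN521. At day 22 they had reached 9.40, 23.4 and 9.12 on LN523, 8.68, 20.3 and 12.6 on LN323, and 33.1, 18.3 and 10.3 on LN521. The days did not overlap on any matrix, and the log2 fold changes were 4.54 ± 0.60, 6.66 ± 0.68 and 4.73 ± 0.60 on LN523, LN323 and LN521 (adjusted p from edgeR 2.28e-08, 2.07e-11 and 8.88e-09). The rise on LN323 started from the lowest day 2 level. The difference in the rise between LN523 and LN323, log2 −2.13 ± 0.84, did not pass the interaction test (unadjusted p = 0.0150, adjusted p = 1 in edgeR). Its relative TFAP2C, which is also active in pluripotent and germ-line cells, did not pass the test on any matrix. TFAP2C was at 19.0, 11.0 and 25.0 CPM on LN523 at day 2 and at 4.56, 38.5 and 4.06 CPM at day 22, so that at day 22 the replicate 2 library lay above all of day 2 and the others below. On LN521 all 3 libraries of day 22 (13.7, 15.4 and 5.77 CPM) lay below those of day 2 (16.8, 20.3 and 25.4 CPM), with a log2 difference of −1.01 ± 0.54 that did not pass (adjusted p = 0.230 in edgeR). On LN523 the TFAP2C difference of −1.04 ± 0.56 passed once replicate 2 of day 2 (−1.64, adjusted p = 0.0341) or replicate 2 of day 22 (−1.79, adjusted p = 0.0118) was left out.

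Of the grainyhead-like factors, GRHL3, known for neural tube closure and the skin barrier, rose on every matrix. Its level went from 3.72, 4.13 and 2.08 CPM at day 2 to 6.57, 45.9 and 7.72 CPM at day 22 on LN523, from 2.29, 1.97 and 2.01 to 9.36, 32.6 and 13.9 CPM on LN323, and from 3.03, 2.02 and 2.29 to 21.5, 24.4 and 8.65 CPM on LN521. The days did not overlap on any matrix, and the log2 fold changes were 2.17 ± 0.58, 2.88 ± 0.59 and 2.72 ± 0.58 (adjusted p from edgeR 0.00310, 0.000110 and 0.000266). GRHL1, which activates desmosomal genes, was called only on LN521, where it rose from 4.59, 5.22 and 4.42 CPM to 16.5, 17.8 and 8.13 CPM (log2 1.52 ± 0.42, adjusted p = 0.00509 in edgeR). On LN523 and LN323 its log2 differences of 0.45 ± 0.41 and 0.74 ± 0.41 did not pass, and the change was not shown to differ between matrices, since 0 of the 10 factors passed the test of that difference. The LN521 call for GRHL1 was lost without replicate 2 of day 2 (adjusted p = 0.0750) or without replicate 1 of day 22 (adjusted p = 0.0673).
GRHL2, which activates CDH1 and other junction genes, was the most abundant factor at day 2, and its day 22 libraries lay on both sides of that level. It stood at 69.4, 80.1 and 59.4 CPM at day 2 and 19.7, 116 and 20.5 CPM at day 22 on LN523, at 78.3, 67.3 and 85.3 and then 17.9, 92.0 and 35.2 CPM on LN323, and at 64.0, 53.2 and 66.9 and then 76.7, 62.4 and 31.4 CPM on LN521. On LN523 and LN323 the replicate 2 library lay above its day 2 group and the others below it. The log2 differences were −0.81 ± 0.50, −1.02 ± 0.50 and −0.17 ± 0.49 and did not pass (adjusted p from edgeR 0.325, 0.163 and 0.948). Leaving out replicate 2 of day 22 on LN523 made the difference −1.39 with an adjusted p of 0.0382, and leaving out replicate 2 of day 2 on LN323 made it −1.42 with an adjusted p of 0.0403.

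KLF5, a Krüppel-like factor of proliferating epithelial cells, rose on every matrix, by log2 2.85 ± 0.37 on LN523, 3.8 ± 0.39 on LN323 and 3.73 ± 0.39 on LN521 (adjusted p from edgeR 2.12e-08, 1.96e-11 and 4.08e-11). It had lain between 1.76 and 6.02 CPM in the 9 libraries of day 2, and it was at 24.4, 95.3 and 17.7 CPM on LN523, 26.6, 78.8 and 24.5 CPM on LN323 and 44.3, 44.6 and 22.6 CPM on LN521 at day 22. ELF3, an ETS factor of simple and stratified epithelia, rose on LN323 from 9.65, 20.6 and 12.3 CPM to 29.7, 66.0 and 39.2 CPM (log2 1.66 ± 0.37, adjusted p = 0.000397 in edgeR) and on LN521 by 1.36 ± 0.37 (adjusted p = 0.00483). On LN523 ELF3 went from 21.3, 16.6 and 23.3 CPM to 30.5, 72.6 and 26.2 CPM without overlap, and the log2 difference of 0.85 ± 0.37 did not pass (adjusted p = 0.0987). Without replicate 1 or replicate 2 of day 2, the ELF3 call on LN521 was also lost, with adjusted p of 0.0886 and 0.0601, while without replicate 3 of day 22 the LN523 difference passed (adjusted p = 0.0365).

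OVOL2 and OVOL1, related repressors that keep epithelial cells from turning mesenchymal, parted. OVOL2 fell from 11.0, 13.7 and 8.95 CPM to 0.787, 6.45 and 0.801 CPM on LN523, from 12.9, 11.4 and 13.7 to 0.761, 4.64 and 0.750 CPM on LN323, and from 10.2, 8.96 and 10.4 to 2.63, 3.13 and 0.988 CPM on LN521. All 9 libraries of day 22 lay below all 9 of day 2, and the replicate 2 libraries on LN523 and LN323 kept the most. The log2 fold changes were −2.63 ± 0.59, −3.22 ± 0.61 and −2.30 ± 0.58 (adjusted p from edgeR 0.000481, 3.34e-05 and 0.00217). OVOL1 was at 7.55, 3.11 and 7.10 CPM at day 2 and 11.0, 12.8 and 9.29 CPM at day 22 on LN523, and its log2 differences of 0.82 ± 0.42, 0.80 ± 0.41 and 0.58 ± 0.41 on LN523, LN323 and LN521 did not pass (adjusted p from edgeR 0.186, 0.190 and 0.434). Of the repressors' known targets, ZEB1 rose from a mean of 0.361 CPM to 69.8 CPM on LN523, 0.476 to 57.5 CPM on LN323 and 0.238 to 80.2 CPM on LN521 between the same days, with log2 fold changes of 7.60, 6.91 and 8.31. ZEB2 rose with it, by log2 7.20, 7.60 and 8.17. Whether the OVOL levels had a part in the rises of ZEB1 and ZEB2 was not tested.

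**Figure D2:**
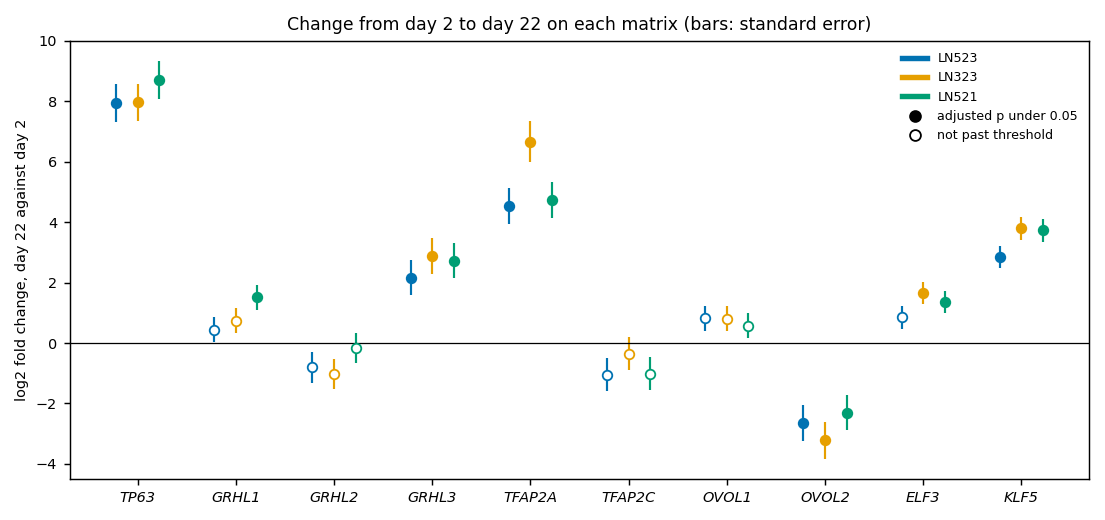
Fitted log2 fold change of day 22 against day 2 (vertical axis) for each of the 10 factors on LN523, LN323 and LN521, with bars for the standard error of the edgeR fit. Filled points passed an adjusted p of 0.05: TP63, TFAP2A, KLF5 and GRHL3 lie above 0 and OVOL2 below 0 on all 3 matrices, while the points of GRHL2, TFAP2C and OVOL1 are unfilled.

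The wider programmes of the same layer were described with gene lists chosen with earlier results of these data known, and their counts stand beside the called shares already given for the day 22 comparison. Of 16 non-neural ectoderm and placode factors, 14 rose on LN523, 14 on LN323 and 15 on LN521, and 1 fell on LN323. The list's median log2 change was 3.33, 3.74 and 4.70. GATA3, a zinc finger factor of non-neural ectoderm and trophoblast, rose from a mean of 0.141 to 24.6 CPM on LN523 (log2 7.34, adjusted p = 9.71e-16 in edgeR), and the homeobox gene MSX2 from 0.764 to 79.2 CPM (log2 6.96). Of 26 stratified epidermal basal genes, 15, 16 and 14 rose on LN523, LN323 and LN521 and 3 fell on each. COL17A1, a hemidesmosome collagen, rose from a mean of 3.40 to 104 CPM on LN523, 4.36 to 92.3 CPM on LN323 and 2.54 to 108 CPM on LN521, and the desmosomal cadherin DSC3 rose from 3.94 to 72.4 CPM on LN523. The keratins that define mature basal keratinocytes, named here after their values were seen, stayed low at day 22, with KRT5 at 0.0761 to 1.09 CPM and KRT14 at 0 to 0.228 CPM in the 9 libraries.

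Most of the called epithelial junction and splicing genes, some of which are grainyhead targets in other epithelia, fell. Of 26 epithelial junction and splicing genes, 13 fell and 3 rose on LN523, 13 fell and 2 rose on LN323, and 10 fell and 5 rose on LN521. ESRP1, an epithelial splicing factor, fell from a mean of 236 to 32.4 CPM on LN523, 232 to 28.8 CPM on LN323 and 210 to 34.2 CPM on LN521, by log2 −3.26, −3.35 and −2.62. CLDN4, a tight junction claudin, rose from 23.2 to 140 CPM on LN523 (log2 2.61). Of 10 mesenchymal transition genes 8 rose on each matrix and none fell, with median log2 changes of 4.24, 4.48 and 4.09. Of 11 amnion and trophoblast genes, 6, 5 and 6 rose and none fell, including WNT6 from 0.146 to 89.5 CPM and VTCN1 from 0.591 to 39.9 CPM on LN523. TP63 and TFAP2A thus rose over the same interval as epidermal, placodal and amnion genes and mesenchymal regulators. Most called genes of the junction and splicing list fell. Whether the same cells carried these genes cannot be read from bulk RNA. Among 15 paralogs of the factors, TFAP2B rose most, from 0 to 25.4 CPM in the mean on LN523, 0.0547 to 23.8 CPM on LN323 and 0.0670 to 49.2 CPM on LN521, and KLF3 rose from 17.6 to 127 CPM on LN523. Of 9 neural crest genes in the table, 3 rose and 4 fell on LN523 and on LN521, and 5 rose and 4 fell on LN323. SOX10 was not analysed here. FOXD3, which is also expressed in pluripotent cells, fell from 31.0 to 0.0980 CPM on LN523. Of 10 horizontal and amacrine cell genes, 2, 3 and 3 rose, PROX1 and GAD1 among them on each matrix, and 1 fell. At day 22 their sums were 45.2, 43.4 and 57.4 CPM on LN523 and 71.9, 45.8 and 46.6 CPM on LN323. On LN521 they were 120, 27.4 and 37.4 CPM. The list and TFAP2A were both highest in LN521 replicate 1. On LN523 and LN323 TFAP2A was highest and the list lowest in replicate 2. The part of such cells in the rises of TFAP2A and TFAP2B was not tested.

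**Figure D3:**
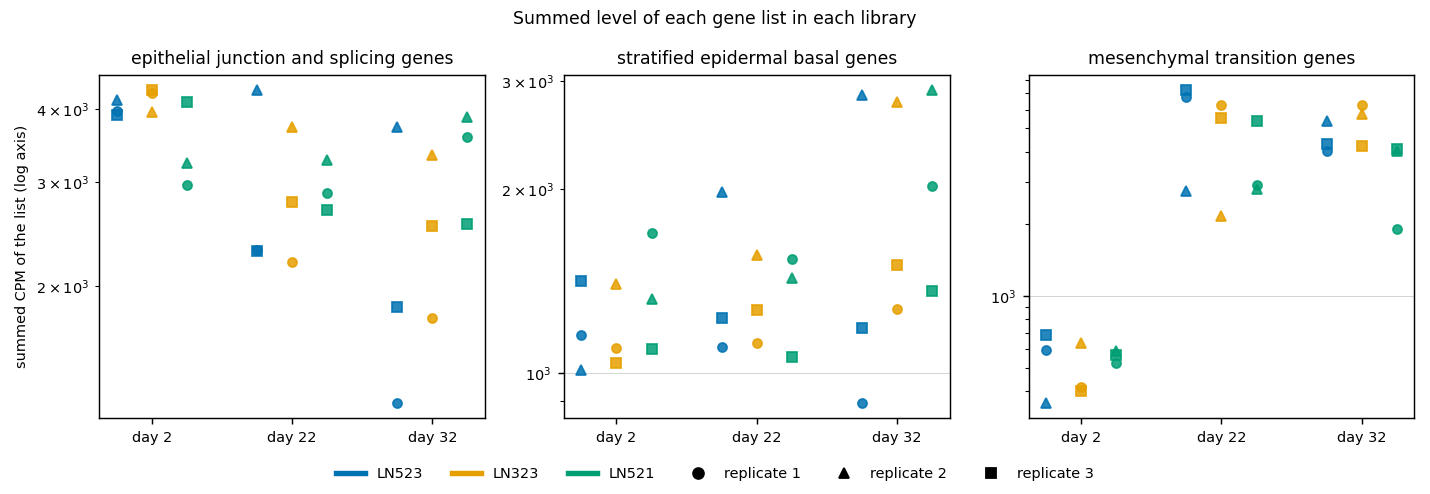
Summed CPM (log axis) of the epithelial junction and splicing, stratified epidermal basal and mesenchymal transition gene lists in each library against day, with colours for matrices and symbols for replicates. At day 22 the junction and splicing sum is highest and the mesenchymal sum lowest in replicate 2 on LN523 and LN323, at 4299 and 2738 CPM on LN523. The mesenchymal sum is weighted to FN1, with a mean of 3638 CPM on LN523 at day 22.

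From day 22 to day 32 none of the 10 factors passed the test on any matrix, where 0.381%, 0.0424% and 0.268% of all genes were called on LN523, LN323 and LN521. By edgeR's quasi-likelihood test 1, 0 and 1 factors were at an unadjusted p under 0.05, as were 4.38%, 2.85% and 6.16% of all genes, and DESeq2 also called 0 on each matrix. On LN523 all 10 log2 differences were below 0, with a median of −0.55, on LN323 the median was −0.09, and on LN521 8 of 10 were above 0 with a median of 0.44. The nearest to a call was KLF5 on LN521, at 44.3, 44.6 and 22.6 CPM at day 22 and 89.0, 140 and 35.2 CPM at day 32 (log2 1.10 ± 0.34, adjusted p = 0.273 in edgeR). It was higher in each of the 3 lanes, although the groups overlapped, and 1 factor was called on LN521 once replicate 1 of day 22 was left out. TP63 was at 3.29, 67.3 and 17.0 CPM at day 32 on LN523, 11.0, 73.2 and 44.1 CPM on LN323, and 23.8, 87.8 and 26.2 CPM on LN521, so that on all 3 matrices the replicate 2 library was higher and the replicate 1 library lower than its day 22 counterpart. Some basal genes did go up over the same interval. KRT17, a keratin of basal and appendage cells, rose from a mean of 21.5 to 177 CPM on LN523, 14.3 to 197 CPM on LN323 and 6.99 to 303 CPM on LN521 (adjusted p from edgeR 4.86e-06, 8.71e-08 and 3.18e-13), and LAMB3, a chain of the epidermal laminin, rose by log2 2.08, 2.46 and 3.52. Of the 26 stratified epidermal basal genes, 3, 2 and 6 rose and none fell, and KRT15 and PKP1 rose on LN521 too. These calls depend on the genes kept in the fit: with edgeR's filter on low counts 0, 1 and 5 of all genes were called on LN523, LN323 and LN521, against 171, 19 and 120 without it. All calls on LN523 were thus lost. At most 1 of the 2 basal genes called on LN323 and at most 5 of the 6 called on LN521 could remain. Among these basal genes KRT5 reached 0.203 to 8.27 CPM and KRT14 0 to 0.841 CPM at day 32.

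At days 22 and 32 the factors varied together between replicates. At day 22 replicate 2 held the highest level of all 10 factors on LN523 and of all 10 on LN323, while on LN521 replicates 1 and 2 each held 5 of the 10 and replicate 3 the lowest level of all 10. The ratio of the highest to the lowest library had a median over the factors of 4.5 on LN523, 2.78 on LN323 and 2.44 on LN521, beside 1.56, 1.5 and 1.36 over genes of at least 1 CPM. The 90th percentiles over those genes were 3.67, 2.92 and 2.53, so the factors' median lay above that mark only on LN523. At day 32 replicate 2 was again the highest for all 10 factors on LN523 and on LN323, and replicate 1 the lowest for 9 and for 10. The median ratio had grown to 11.8 on LN523 and 6.02 on LN323, beside 1.46 and 1.41 over genes of at least 1 CPM, and was 2.98 beside 1.73 on LN521. The 90th percentiles over those genes were 3.05, 3.03 and 3.81 on LN523, LN323 and LN521, so on LN521 the factors' median lay below that mark. GRHL3 was the extreme, at 0.640, 38.7 and 7.74 CPM on LN523, a ratio of 60.4, and GRHL2 stood there at 2.86, 68.1 and 17.3 CPM, a ratio of 23.8. TFAP2A varied less, at 5.10, 17.2 and 4.72 CPM. Replicate number is also the sequencing lane, so a lane and a culture cannot be told apart. On LN521 at day 32 replicate 2 was the highest for 8 of 10 factors and replicate 1 for 2.

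**Figure D4:**
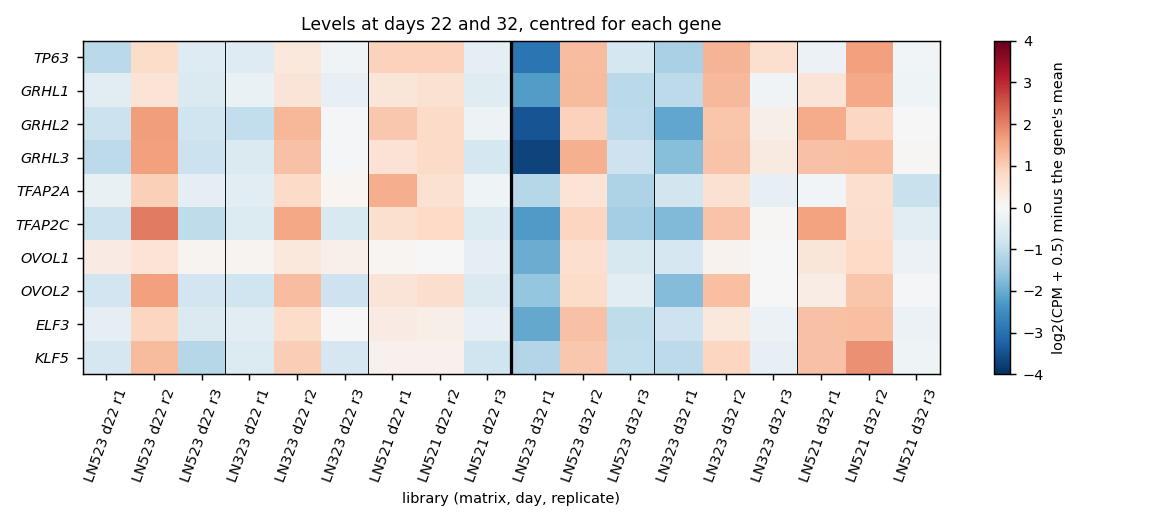
Level of each of the 10 factors (rows) in the 18 libraries of days 22 and 32 (columns, r for replicate), as log2(CPM + 0.5) minus the mean of that gene over the 18 libraries. Whole columns share a colour: replicate 2 on LN523 and LN323 is red at both days, and replicate 1 on LN523 at day 32 is blue for all 10 genes.

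Some of the other lists moved with these libraries and some did not. The summed level of the 26 epithelial junction and splicing genes at day 32 was 1267, 3727 and 1839 CPM in replicates 1 to 3 on LN523, 1767, 3339 and 2528 CPM on LN323, and 3584, 3874 and 2550 CPM on LN521. That of the 11 amnion and trophoblast genes was 22.4, 552 and 121 CPM on LN523, 73.6, 563 and 245 CPM on LN323, and 395, 430 and 331 CPM on LN521. The 8 eye field and retinal progenitor genes, the intended lineage, had their lowest day 32 sum in replicate 2 on each matrix. They summed to 2456, 1501 and 2575 CPM on LN523, 2132, 1571 and 2250 CPM on LN323, and 1543, 1384 and 2005 CPM on LN521. At day 22 the sums were 2255, 1504 and 2225 CPM on LN523, 1778, 1776 and 2325 CPM on LN323, and 1397, 1574 and 1951 CPM on LN521. Replicates 1 and 2 were thus near equal on LN323, and replicate 1 was lowest on LN521. All 8 were at or above 1 CPM in each library of days 22 and 32. At day 2 the list already summed to 448 to 973 CPM, with 3 to 5 of the 8 genes at 1 CPM or more. At day 22 the 10 mesenchymal transition genes summed to 6745, 2738 and 7227 CPM on LN523, 6286, 2162 and 5544 CPM on LN323, and 2907, 2787 and 5363 CPM on LN521. This sum was lowest where the factors were highest, but it weighs FN1 far more than the regulators. FN1 averaged 3638 CPM on LN523, where ZEB1 and ZEB2 averaged 69.8 and 60.4 CPM. Of the 10 genes, 9, 10 and 9 were at 1 CPM or more on LN523, 9, 10 and 10 on LN323, and 10, 9 and 8 on LN521. At day 32 replicate 2 no longer had the lowest sum, with 4033, 5383 and 4314 CPM on LN523, 6291, 5771 and 4233 CPM on LN323, and 1910, 4009 and 4117 CPM on LN521. The summed level of the 16 non-neural ectoderm and placode factors did not follow replicate 2 at day 32, at 329, 330.2 and 290 CPM on LN523, 351, 311 and 353 CPM on LN323, and 259, 225 and 293 CPM on LN521. Of these genes, 11, 14 and 12 were at 1 CPM or more on LN523, 11, 14 and 13 on LN323, and 13, 13 and 11 on LN521. At day 22 the sums were 303, 356 and 327 CPM on LN523, 363, 366 and 401 CPM on LN323, and 278, 220 and 437 CPM on LN521. The part of these other genes and cells in the levels of the factors was not tested.

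Over the 18 libraries of days 22 and 32, all 45 pairs of factors had a Pearson correlation of log2(CPM + 0.5) above 0.5, with a median of 0.862 and a range from 0.669 to 0.976. Within groups, after each group's mean was taken away, the median was 0.885. The highest was that of GRHL2 and GRHL3, and TFAP2A and OVOL1 had the lowest medians with the others, 0.782 and 0.786. The points share matrices, days and lanes, and the correlations are a description of these libraries. The genes most alike were sought among 16021 with a mean of at least 1 CPM. GRHL3 ran with WNT6 (r = 0.987), the membrane protease gene ST14 (0.987) and ESRP1 (0.978), GRHL2 with MAB21L4 (0.983), VGLL1 (0.980) and KDF1 (0.979), and ELF3 with C6orf132 (0.989) and SH2D3A (0.971). TP63 ran with TFAP2B (0.949), MIR205HG (0.949) and VAMP8 (0.949), and KLF5 with SCEL (0.960), CDR2L (0.957) and USP31 (0.956). GRHL1 was nearest to ANXA1 (0.972), RAB25 (0.964) and ERBB3 (0.963), and TFAP2C to ARHGAP27 (0.977), RBM47 (0.975) and HEY2 (0.967). TFAP2A was nearest to CDC42BPG (0.957), PCDH1 (0.930) and PLEKHG6 (0.928), OVOL1 to MACC1 (0.948) and F2RL1 (0.932), and OVOL2 to IL36RN (0.960), TMPRSS2 (0.950) and CDH3 (0.949).

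The matrices were compared within each day to ask whether the laminin coating altered the factors. None of the 10 passed the test in any of the 9 comparisons by edgeR's quasi-likelihood test. At day 2 the share of all genes called was 0.233% for LN523 against LN323, 0.624% for LN523 against LN521 and 2.5% for LN323 against LN521, and 2, 0 and 2 of the 10 factors were at an unadjusted p under 0.05 beside 2.38%, 8.07% and 11.4% of all genes. At day 22 the shares were 0.013%, 0.572% and 0.616%, and 0, 3 and 3 factors were at an unadjusted p under 0.05 beside 1.33%, 4.56% and 5.08% of all genes. At day 32 the shares were 0%, 0.0609% and 0.117%, and 1, 9 and 3 factors were at an unadjusted p under 0.05 beside 1.9%, 5.17% and 4.47% of all genes. With a filter on low counts edgeR called 0 of all genes in each of the 9 comparisons. DESeq2 called 0 in 8 of the 9 comparisons and 1 in that of LN523 with LN521 at day 32. At day 2 TFAP2A was lower on LN323 than on LN521 in all 3 lanes without overlap (log2 −2.17 ± 0.92), and KLF5 was higher on LN523 than on LN323 in all 3 lanes (0.83 ± 0.39) without overlap, and neither passed. Groups without overlap in those directions were found for 6.79% and 2.48% of all genes. Higher on LN323 than on LN521 in all 3 lanes without overlap were GRHL1 (0.34 ± 0.32), GRHL2 (0.22 ± 0.19) and OVOL2 (0.26 ± 0.28), as were 9.23% of all genes, and GRHL1 was higher on LN523 than on LN521 in the same way (0.56 ± 0.32), as were 6.1% of all genes. None of these passed. Without LN323 replicate 2, 2 factors were called at day 2 in LN523 against LN323 and 2 in LN323 against LN521, and without LN523 replicate 2, 1 was called in the former. Comparisons of a day share their libraries, so their values are not independent of each other. At days 22 and 32 the factors also varied together between libraries, so the factors counted are not independent observations either.

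At day 22 the closest to a call was TP63 in LN523 against LN521, with 13.2, 47.4 and 19.3 CPM against 53.5, 53.5 and 22.0 CPM. It was lower on LN523 in each lane, and the groups overlapped (log2 −0.82 ± 0.23, adjusted p = 0.0703 in edgeR). Its differences of log2(CPM + 0.5) within lanes 1 to 3 were −1.98, −0.17 and −0.18, so lane 1 carried most of the difference. LN521 replicate 1 also held the most pluripotency RNA at day 22, with the 10 pluripotency genes summing to 652 CPM and all 10 at 1 CPM or more, against 99.4 to 250.9 CPM in the other 8 libraries. Their part in the lane 1 differences was not tested. In the same comparison 1 to 3 factors were called once LN523 replicate 2, LN521 replicate 2 or LN521 replicate 3 was left out, at 2, 3 and 1. Without LN521 replicate 2 or without LN521 replicate 3, 1 factor was called in LN323 against LN521. OVOL1, by contrast, lay without overlap above LN521 on LN523 (11.0, 12.8 and 9.29 against 9.10, 8.72 and 6.37 CPM) and on LN323, with log2 differences of 0.45 ± 0.29 and 0.37 ± 0.29 that did not pass. Groups that did not overlap in that direction were found for 3.29% and 2.68% of all genes.

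At day 32 all 10 factors were lower on LN523 than on LN521, with a median log2 difference of −1.42 beside −0.028 over all genes, and none passed. KLF5 was nearest, at 17.0, 83.8 and 19.6 CPM on LN523 and 89.0, 140 and 35.2 CPM on LN521 (log2 −1.41 ± 0.29, adjusted p = 0.0697 in edgeR and 0.0103 in DESeq2). GRHL2 had the largest difference, at 2.86, 68.1 and 17.3 CPM against 103, 64.8 and 36.1 CPM (log2 −2.27 ± 0.65, adjusted p = 0.263 in edgeR), and GRHL3 came next at 0.640, 38.7 and 7.74 CPM against 32.4, 33.4 and 14.8 CPM (−2.02 ± 0.68, adjusted p = 0.447). The groups overlapped for all 10 factors. Within lane 1 the differences of log2(CPM + 0.5) ran from −4.94 for GRHL2 to −1.02 for TFAP2A, within lane 2 from −0.74 to 0.21 and within lane 3 from −1.04 to −0.35. The lane 1 pair thus set the size of the difference, and in lane 2 the matrices lay closer together. In the LN521 library of lane 1 the pluripotency genes summed to 128 CPM, against 49.9 to 104 CPM in the other 8 of day 32, and the mesenchymal transition genes to 1910 CPM, the lowest of the day. Among the pluripotency genes, DNMT3B and LIN28A averaged 50.5 and 18.9 CPM on LN521 at day 32. The LN523 library of lane 1 had the lowest sums of the day for the epithelial junction and splicing genes, 1267 CPM, and the amnion and trophoblast genes, 22.4 CPM. The part of these genes in the lane 1 differences was not tested. Without LN521 replicate 1, 5 factors were called with smaller differences, TP63 at −0.64, GRHL1 at −0.73, GRHL2 at −0.58, ELF3 at −0.55 and KLF5 at −0.78. Without LN521 replicate 2 only GRHL2 was called (−3.39, adjusted p = 0.0482), and without LN521 replicate 3 only KLF5 (−1.73, adjusted p = 0.0227). None was called when an LN523 library was left out.

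**Figure D5:**
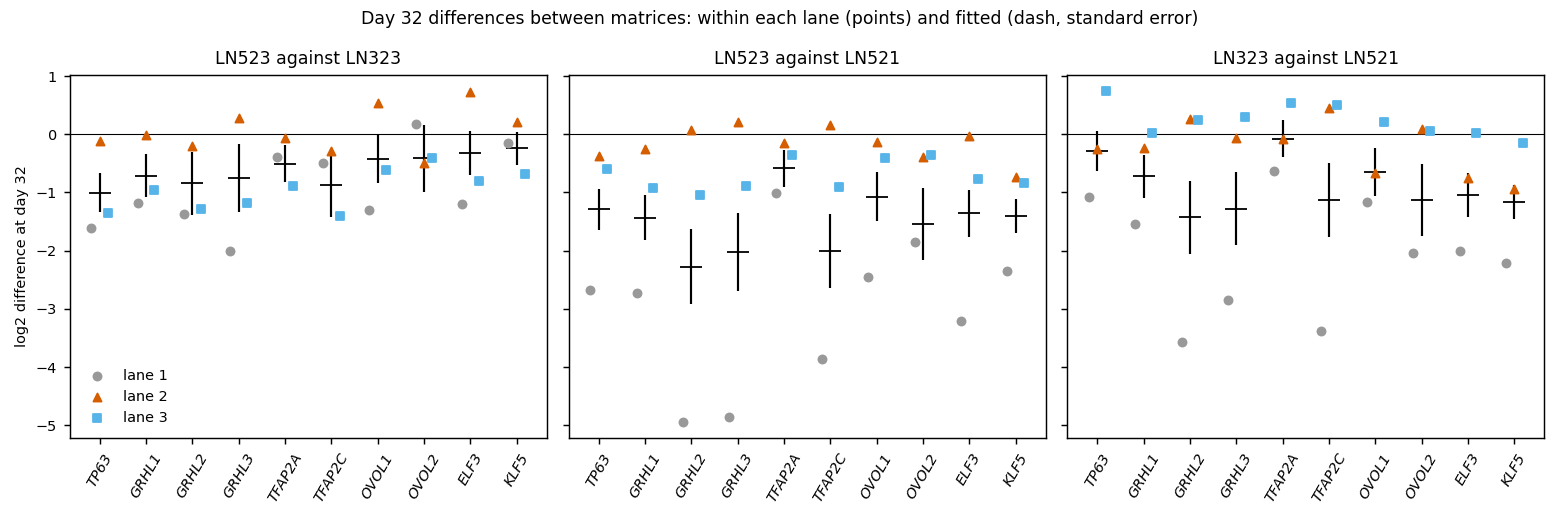
Log2 difference between matrices at day 32 (vertical axis) for each of the 10 factors in the 3 comparisons, with points for the difference within each sequencing lane and black dashes with bars for the edgeR estimate and its standard error. In LN523 against LN521 the lane 1 points lie between −4.94 and −1.02 and the lane 2 points between −0.74 and 0.21.

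LN323 against LN521 at day 32 was also lower for all 10 factors, with a median log2 difference of −1.09, and LN523 against LN323 with a median of −0.61. KLF5 was again the nearest to a call in LN323 against LN521 (18.9, 72.4 and 31.5 against 89.0, 140 and 35.2 CPM, log2 −1.17 ± 0.29, adjusted p = 0.181 in edgeR), and 1 factor was called without LN521 replicate 1 or without LN521 replicate 3. The lists around the factors gave like values in LN523 against LN521, with 26 of 26 epithelial junction and splicing genes lower (median −1.13) and 0 called, 25 of 26 stratified epidermal basal genes lower (median −0.78) and 0 called, and 10 of 11 amnion and trophoblast genes lower (median −1.96) and 0 called. The 16 non-neural ectoderm and placode factors had a median of 0.19 and the 10 mesenchymal transition genes 0.40. The interaction test of LN523 against LN521 between days 22 and 32 called 0 of the 10 factors, where 0.00236% of all genes were called. Of the factors 4 were at an unadjusted p under 0.05 (KLF5, OVOL1, TFAP2C and ELF3), beside 4.28% of all genes, with KLF5 at −1.22 ± 0.43 (unadjusted p = 0.00711, adjusted p = 0.919 in edgeR), and DESeq2 called 0. The remaining 2 interactions between those days and the 3 between days 2 and 22, which were added after the data were seen, also called 0 factors by edgeR and by DESeq2, with at most 1 factor at an unadjusted p under 0.05. Between days 22 and 32, LN523 against LN323 and LN323 against LN521 each called 0% of all genes, with 1.39% and 2.94% at an unadjusted p under 0.05. Between days 2 and 22, 0% of all genes were called for LN523 against LN323, 0.00446% for LN523 against LN521 and 0.0201% for LN323 against LN521, with 2.12%, 4.65% and 5.31% at an unadjusted p under 0.05.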

How the data were processed

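RNA of H1 cells was made into stranded libraries, with rRNA depleted, and read as 150 bp pairs. Per the submitters' processing notes and the study's methods, the authors used cutadapt, STAR 2.5.2b on GRCh38 with Ensembl 79, and featureCounts 1.5.1, left out rRNA and mitochondrial genes and deposited raw counts per gene, rounded. A second deposited table holds TPM, computed by the authors from those counts and a fixed gene length. An even number made up 68.8% of counts above 0, and whether a read or a pair was counted was not given in the sources used here.

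GENCODE 44 named 43052 of 44852 genes. Counts were tested in edgeR 4.0.16 (R 4.3.3) with quasi-likelihood fits, TMM scaling, lane as a block as in the study's methods and Benjamini-Hochberg adjustment, with a threshold of 0.05. A gene needed a count sum above 1. Matrices were compared within the 9 libraries of a day, days in all 27, and interactions between days 22 and 32 in 18. CPM use TMM-scaled totals, and SE is the log2 fold change divided by the root of F. The alternatives were DESeq2 1.42.0, its size factors in edgeR, a filter on low counts, no block and leaving out each library. The scripts were tested on simulated data with 200 changed genes. For LN523 against LN521 at day 32 edgeR recovered 75% of changes of log2 2 and 21% of changes of log2 1, and also called 26 unchanged genes. DESeq2 recovered 82% and 32% there and called 307 unchanged genes. For LN523 day 22 against day 2 the shares in edgeR were 78% and 23%, with 37 unchanged genes called. The changed genes were drawn at random from genes above a low mean count, and no lane effect was simulated. On LN523 at day 32 the factors' median ratio of highest to lowest library was 11.8, beside 1.46 over genes of at least 1 CPM. The recovered shares therefore need not hold for the factors, and GRHL2 did not pass at −2.27 in LN523 against LN521 at day 32. A factor that did not pass may still have changed, also by log2 2 or more.

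The members and lists were chosen with earlier results of these data known. Apart from the 10 factors, the named genes are at most 4 per list and comparison, past the threshold with 1 CPM or more on average in either group, by size of change, and the 3 most correlated per factor, of which 1 gene is not reported here. KRT5 and KRT14 were named after their values were seen. Totals ranged from 25620624 to 47340990 counts, and counting intervals would cover counting error only. The labels give the lane that pairs libraries. Deviations of same-lane libraries correlated with r from −0.647 to 0.805, so the lanes paired only some of them. For LN523 and LN521, lane 1 gave −0.166 at day 22 and −0.227 at day 32, where lanes 2 and 3 gave 0.311 to 0.411. For LN323 and LN521, lane 1 gave −0.250 and −0.303.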

Additional observations from a re-analysis of the deposited data

How the results depend on the processing

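Of 246 recomputed counts of factors called, 231 stayed within 1.5 times the reported count and 15 did not, and of 400 recomputed values of single factors 379 kept direction and call. Besides leaving out libraries, the changed count was 1 factor (KLF5) by DESeq2 in LN523 against LN521 at day 32, where edgeR called 0. In the simulated data of that comparison DESeq2 called 307 unchanged genes and edgeR 26. DESeq2's size factors in edgeR and a filter on low counts changed no count of factors beyond that limit. Over all genes the counts moved more. In the 9 matrix comparisons edgeR called 0 to 967 genes, 0 with the filter on low counts, 0 to 1476 without the replicate block and DESeq2 486 to 897, and at day 32 for LN523 against LN521 these were 24, 0, 0 and 823. Without the replicate block the counts stayed at 5, 6 and 7 for day 22 against day 2 on LN523, LN323 and LN521 and at 0 in all other comparisons. Leaving out each library in turn gave 5 to 7, 6 to 7 and 5 to 7 factors there. It gave 0 to 2 in LN523 against LN323 and in LN323 against LN521 at day 2, 0 to 3 in LN523 against LN521 and 0 to 1 in LN323 against LN521 at day 22, 0 to 5 and 0 to 1 in the same comparisons at day 32, 0 to 1 in LN521 day 32 against day 22, and 0 in the rest. The libraries behind these changes are named beside the results, and the cause was not tested. GRHL2 on LN521, at −0.17 from day 2 to day 22, changed sign to 0.08 without LN521 day 2 replicate 1, 0.05 without day 2 replicate 3, 0.15 without day 22 replicate 2 and 0.14 without day 22 replicate 3, and was −0.84 without day 22 replicate 1. With 3 libraries a group and replicate 2 far above the others on LN523 and LN323, the spread between libraries is wide in the matrix comparisons of days 22 and 32.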
